A study of Mus musculus with 12 samples.

Results

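Fc receptors bind the constant part of antibodies. The 6 genes described here are Fcgr1, Fcgr2b, Fcgr3, Fcgr4, Fcer1g and Fcgrt. They encode the mouse Fc gamma receptors of macrophages, the signalling chain that the activating ones share and the neonatal Fc receptor. They were found as probe sets that the platform annotation gives exactly 1 gene symbol, which yielded 10 probe sets for these 6 genes among the 17097 genes so represented, and each gene was read from the brightest of its probe sets by the mean of the 12 arrays. The study put bone marrow-derived macrophages of C57BL/6 mice, in number equal to the tumour cells, onto spheres that the mouse neuroblastoma line TT9423 had formed on agar. In-sphere macrophages were labelled CD11b-positive and came from digested spheres by magnetic selection on CD11b, and outside macrophages were those of the same cultures that had not entered. The 4 groups, with 3 arrays each, were in-sphere at 48 h, outside at 48 h, in-sphere at 24 h and outside at 24 h. All groups shared the mouse strain, the tumour line and the culture, so no macrophages kept without tumour cells entered a comparison. For outside macrophages, the sources used here do not state a digestion or a CD11b selection. The times are those of the titles, while the protocol text common to all samples speaks of a 24 h co-culture. A replicate stands for a separate experiment, with the cells of several wells pooled.

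In the mouse, the type I, III and IV Fc gamma receptors (genes Fcgr1, Fcgr3 and Fcgr4) bind IgG and signal through the FcR gamma chain (Fcer1g), whose ITAM motif recruits the kinase Syk and starts phagocytosis, the oxidative burst and cytokine release. The type IIb receptor (Fcgr2b) binds IgG in immune complexes and carries an ITIM motif, which recruits the lipid phosphatase SHIP1 and dampens signals from the activating receptors. The neonatal Fc receptor FcRn (Fcgrt) works inside cells, where its heavy chain pairs with beta-2-microglobulin and returns IgG and albumin to the surface instead of the lysosome. In macrophages the ratio of activating to inhibitory receptors sets how readily antibody-coated targets are engulfed.

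The values are log2 expression per probe set after RMA, the array method that corrects background, equalises the distributions of the arrays and summarises the probes of a set. Array medians ran from 3.03 to 3.17, and genes entered the test where at least 3 arrays lay above 2.77, which is the 40th percentile of the table. All 6 Fc receptor genes exceeded it on 12 of 12 arrays, as did 8 of the 9 macrophage markers with a probe set, while Cd163 lay at or below it on every array. In-sphere replicate 3 of 48 h was set apart by the lowest mean of any array, 4.06 against 4.20 to 4.22 elsewhere, and the lowest array weight, 0.235. The difference between 3' and 5' actin probe sets, a sign of RNA integrity, was 0.35 to 0.60 in spheres and 0.22 to 0.32 outside at 24 h, and 0.39 to 0.42 in spheres and 0.37 to 0.40 outside at 48 h. Its part in the 24 h results was not tested.

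The promoters of the 4 Fc gamma receptor genes are shown, since the activating and inhibitory receptors are set against each other among the results. Fcgr2b, Fcgr3, Fcgr4 and Fcer1g lie on mouse chromosome 1, while Fcgr1 is on chromosome 3 and Fcgrt on chromosome 7. The 250 bases before each transcription start are from RefSeq, assembly GRCm38.p6, and run 5' to 3' on the strand of the gene. Their positions are chr3:96293970-96294219 (minus strand) for Fcgr1, chr1:170976072-170976321 (minus strand) for Fcgr2b, chr1:171059404-171059653 (minus strand) for Fcgr3 and chr1:171018676-171018925 (plus strand) for Fcgr4, and for Fcgr3 the first of 2 listed start sites was used. The Fcgr3 window lies inside the listed span of that gene, 171051169 to 171065915, and the window of its other start site was not searched. Capitals mark every match, on either strand, to 4 motifs, namely GAGGAA of the PU.1 type, TTCNNNGAA of the STAT type, the IRF type, which is GAAA repeated after a gap of 2 bases, and ACGTG of the hypoxia-inducible factor type.
Fcgr1: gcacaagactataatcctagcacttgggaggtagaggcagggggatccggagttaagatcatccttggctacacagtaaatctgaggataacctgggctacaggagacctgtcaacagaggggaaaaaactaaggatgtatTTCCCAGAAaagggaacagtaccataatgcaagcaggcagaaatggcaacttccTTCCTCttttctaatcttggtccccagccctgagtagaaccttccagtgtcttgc
Fcgr2b: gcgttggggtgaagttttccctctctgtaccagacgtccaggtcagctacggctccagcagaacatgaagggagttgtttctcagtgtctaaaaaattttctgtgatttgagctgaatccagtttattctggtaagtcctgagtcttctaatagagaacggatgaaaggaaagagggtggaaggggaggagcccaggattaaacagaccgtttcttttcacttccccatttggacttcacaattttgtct
Fcgr3: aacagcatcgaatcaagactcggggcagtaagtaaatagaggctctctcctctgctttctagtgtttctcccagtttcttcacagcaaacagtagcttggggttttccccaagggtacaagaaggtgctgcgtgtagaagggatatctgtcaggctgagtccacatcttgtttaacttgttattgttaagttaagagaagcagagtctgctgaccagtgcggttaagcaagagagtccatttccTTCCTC
Fcgr4: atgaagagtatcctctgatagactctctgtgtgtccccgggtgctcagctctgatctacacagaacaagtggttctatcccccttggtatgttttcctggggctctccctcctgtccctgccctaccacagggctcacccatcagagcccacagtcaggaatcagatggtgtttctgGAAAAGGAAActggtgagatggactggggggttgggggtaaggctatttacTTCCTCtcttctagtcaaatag
The Fcgr1 window held TTCCTC, which is GAGGAA read on the other strand, at position -55 relative to the transcription start, and TTCCCAGAA at -109. TTCCTC also stood at -6 for Fcgr3 and at -22 for Fcgr4, whose window held GAAAAGGAAA at -73. None of these matches overlapped another. No letters of these motifs were found in the Fcgr2b window, nor in those of Fcer1g and Fcgrt. Of 27025 mouse promoter windows of this length, 23.1% held GAGGAA, 7.18% TTCNNNGAA, 3.04% the IRF-type motif and 16.6% ACGTG. Each match describes these letters only.

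Among the 6 genes, the inhibitory receptor gene Fcgr2b had the largest difference between compartments. It was 4.11-fold higher in spheres than outside at 48 h and 2.52-fold higher at 24 h, while the activating receptor genes Fcgr3 and Fcgr4 and the signalling chain Fcer1g were not called at either time. The high-affinity receptor gene Fcgr1 was 2.28-fold higher in spheres at 48 h, and the recycling receptor gene Fcgrt was 1.52-fold lower at 48 h and 1.70-fold lower at 24 h. In bulk RNA, fewer cells of a type and less RNA per cell cannot be told apart. Calls are limma results with a p under 0.05 after Benjamini-Hochberg adjustment over the 12488 genes tested. At 48 h, 2 of the 6 genes were called higher and 1 lower, beside 37.5% of all genes called, 15.2% higher and 22.3% lower. At 24 h, 1 was called higher and 1 lower, beside 29.4% of all genes called, 15.8% higher and 13.6% lower. The median difference of the 6 genes was 0.11 at 48 h and 0.07 at 24 h, beside -0.10 and -0.01 over all genes tested. Centring each array on its median moved the all-gene median at 48 h to 0.02 and the share of calls that were higher in spheres to 51.4%, against 40.6% without centring. At 24 h it moved that median to -0.07 and that share to 45.9%, against 53.8% without centring.

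**Figure D1:**
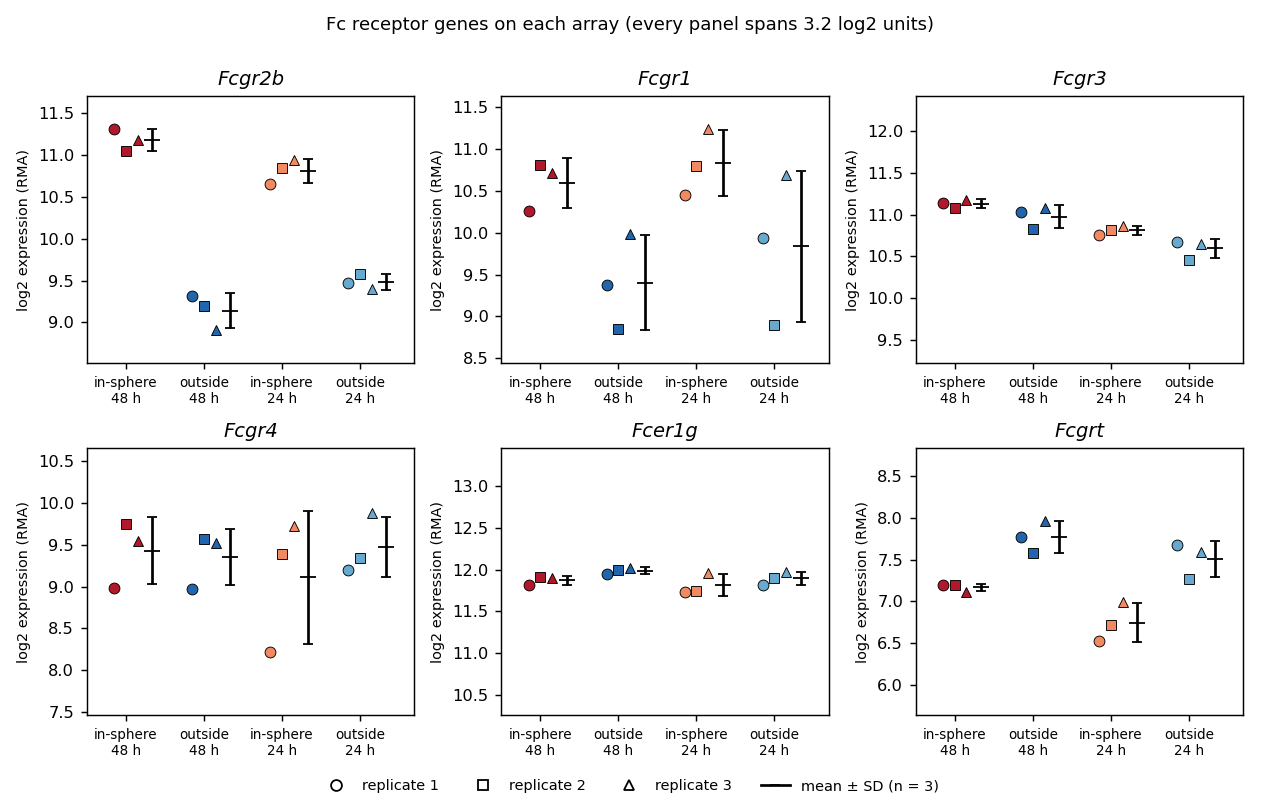
Log2 expression of the 6 Fc receptor genes on each of 12 arrays, with in-sphere and outside macrophages at 48 h and then at 24 h from left to right in each panel, symbols for replicates and bars for the mean ± SD (n = 3). Fcgr2b lies above 10.6 on every in-sphere array and below 9.6 on every outside array, Fcgrt is lower in spheres at both times, and Fcer1g stays between 11.7 and 12.1 throughout.

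Fcgr1 encodes the high-affinity activating receptor, which binds single IgG molecules. Its in-sphere arrays read 10.26, 10.81 and 10.71 at 48 h, against 9.37, 8.85 and 9.98 on the outside arrays of the same replicates. Every in-sphere array lay above every outside array, and the outside arrays were spread over more than 1 log2 unit. The difference was 1.19 ± 0.40 on the log2 scale (SE, n = 3 each), with a 95% interval of 0.32 to 2.06 and a limma adjusted p of 0.0338. That call was lost without any 1 of 4 arrays, all of 48 h: the limma adjusted p was 0.0912 when in-sphere replicate 2 was omitted, 0.0858 for in-sphere replicate 3, 0.0790 for outside replicate 1 and 0.131 for outside replicate 2. It was lost too, at 0.0705, with the mean of both Fcgr1 probe sets, of which the dimmer gave a difference of 0.62 ± 0.35 at 48 h (limma adjusted p = 0.200).

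At 24 h, Fcgr1 read 10.45, 10.80 and 11.24 in spheres and 9.94, 8.89 and 10.69 outside. The groups overlapped, since outside replicate 3 was above in-sphere replicate 1, but the in-sphere array was the higher in each same-numbered pair. The difference was 0.99 ± 0.40 (95% interval 0.12 to 1.86), with a limma adjusted p of 0.0840, and with the replicate number as a block it was called at an adjusted p of 0.0286, beside 30.7% of all genes. Without outside replicate 3 of 24 h it was 1.42 and called (limma adjusted p = 0.0177), and without outside replicate 2 of that time it was the smallest of any omission, 0.52. Over both times the in-sphere excess of Fcgr1 within a pair ran from 0.51 to 1.96, and the highest values belonged to replicate 2 at each time.

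Fcgr3 encodes the low-affinity activating receptor, which binds immune complexes. Its levels at 48 h were 11.14, 11.07 and 11.18 in spheres and 11.03, 10.82 and 11.08 outside. At 24 h they were 10.76, 10.81 and 10.86 in spheres and 10.67, 10.46 and 10.65 outside. The groups overlapped at 48 h and did not overlap at 24 h, and the in-sphere array was the higher in 6 of 6 pairs, by 0.09 to 0.35. Differences of 0.15 ± 0.11 at 48 h and 0.22 ± 0.11 at 24 h were not called (limma adjusted p = 0.306 and 0.170). Their 95% intervals, -0.09 to 0.39 and -0.02 to 0.46, leave room for at most a 1.31-fold and a 1.37-fold in-sphere excess.

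Fcgr4 encodes an activating receptor of intermediate affinity. It read 8.98, 9.75 and 9.55 in spheres and 8.97, 9.57 and 9.53 outside at 48 h. The 24 h values were 8.22, 9.39 and 9.72 in spheres and 9.20, 9.35 and 9.89 outside. In both compartments and at both times replicate 1 was the lowest, and the compartments overlapped throughout. The differences, 0.07 ± 0.35 at 48 h and -0.37 ± 0.35 at 24 h, were not called (limma adjusted p = 0.894 and 0.490). Their intervals were wide, -0.69 to 0.83 and -1.12 to 0.39, and the sign turned when single arrays were left out, to -0.12 at 48 h without outside replicate 1 and to 0.08 at 24 h without in-sphere replicate 1.

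Fcer1g encodes the FcR gamma chain that all of these activating receptors need at the surface. Its values were 11.82, 11.91 and 11.90 in spheres and 11.94, 11.997 and 12.03 outside at 48 h. At 24 h they were 11.73, 11.74 and 11.97 in spheres and 11.82, 11.90 and 11.98 outside. The in-sphere array was the lower of the pair in 6 of 6 pairs, by 0.01 to 0.16, and the groups did not overlap at 48 h. The difference at 48 h was -0.11 ± 0.11 (95% interval -0.34 to 0.12, limma adjusted p = 0.429), and it turned to 0.0035 when arrays were centred on their medians. At 24 h it was -0.09 ± 0.11 (-0.32 to 0.14, adjusted p = 0.606).

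Fcgr2b, the inhibitory receptor gene, read 11.31, 11.05 and 11.18 in spheres and 9.31, 9.20 and 8.91 outside at 48 h. At 24 h its arrays read 10.65, 10.84 and 10.94 in spheres and 9.47, 9.58 and 9.40 outside. The lowest in-sphere array stood more than 1 log2 unit above the highest outside array. The difference was 2.04 ± 0.13 at 48 h (95% interval 1.75 to 2.33, limma adjusted p = 1.24e-06) and 1.33 ± 0.13 at 24 h (1.04 to 1.62, adjusted p = 2.59e-05). It was called under all 22 other settings and array omissions at both times, with values of 1.92 to 2.16 at 48 h and 1.27 to 1.42 at 24 h.

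The probe set used for Fcgr2b is of the type whose probes can match transcripts of more than 1 gene, as is the set whose name carries an x, and the Fcgr genes are related in sequence. The other 3 Fcgr2b probe sets included 2 of the type designed for transcripts of a single gene, and those gave differences of 2.27 ± 0.14 and 2.17 ± 0.14 at 48 h and of 1.54 ± 0.14 and 1.54 ± 0.14 at 24 h. All 4 sets were called at both times when every probe set was tested on its own, the remaining one at 2.02 and 1.28.

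Fcgrt, the FcRn heavy chain gene, had 7.19, 7.19 and 7.12 in spheres and 7.77, 7.58 and 7.96 outside at 48 h. The 24 h levels were 6.52, 6.71 and 6.995 in spheres and 7.67, 7.26 and 7.59 outside. No in-sphere array reached an outside array of its time, and the in-sphere array was the lower in 6 of 6 pairs, by 0.39 to 1.14. It fell by 0.60 ± 0.15 at 48 h (95% interval -0.94 to -0.27, limma adjusted p = 0.00826) and by 0.76 ± 0.15 at 24 h (-1.10 to -0.43, adjusted p = 0.00275), and these calls held under all 22 other settings and array omissions. B2m, which encodes the light chain of FcRn, was not analysed here.

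**Figure D2:**
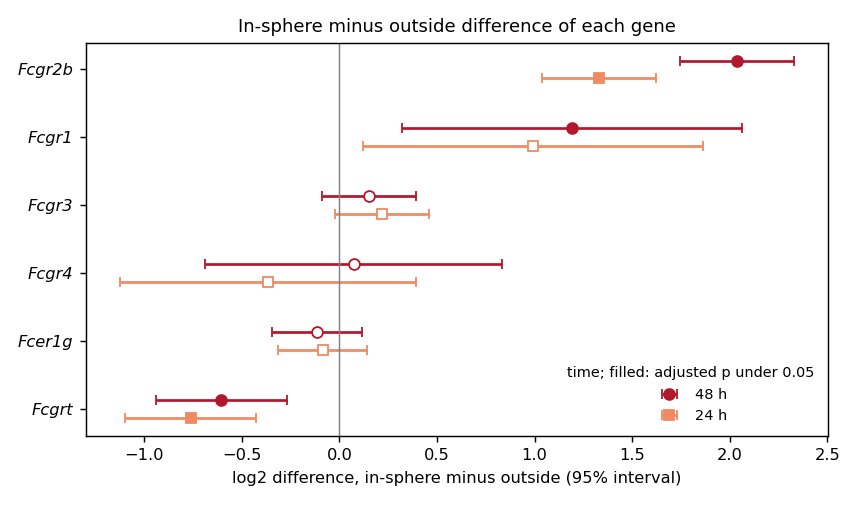
In-sphere minus outside difference of each Fc receptor gene on the log2 scale at 48 h (circles) and 24 h (squares), with 95% intervals from limma, filled where the adjusted p was under 0.05. Only Fcgr2b and Fcgrt are filled at both times, in opposite directions, and the intervals of Fcgr3, Fcgr4 and Fcer1g include 0 at both.

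Groups of arrays that did not overlap between compartments were found for 4 of the 6 genes at 48 h and 3 of 6 at 24 h, beside 51.6% and 43.4% of all genes tested. Fcgr1, Fcgr2b and Fcgr3 were higher in spheres in 6 of 6 same-numbered pairs, as were 17.8% of all genes, and Fcer1g and Fcgrt were lower in 6 of 6, as were 21.4%. Fcgr4 was higher in 4 of 6.

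The levels of 2 probe sets cannot be set against each other, but the shift between an activating receptor and Fcgr2b from compartment to compartment can be followed within arrays. The log2 value of Fcgr3 minus that of Fcgr2b was -0.17, 0.03 and -0.0014 in spheres and 1.72, 1.62 and 2.17 outside at 48 h. At 24 h it was 0.11, -0.03 and -0.08 in spheres and 1.21, 0.88 and 1.25 outside. All 6 in-sphere arrays lay below all 6 outside arrays. The in-sphere difference averaged -1.50 over both times, a 2.83-fold lower ratio of Fcgr3 to Fcgr2b (two-sided exact permutation of compartments within each time, p = 0.005, adjusted over 3 receptors p = 0.0075).

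For Fcgr4 minus Fcgr2b the arrays read -2.33, -1.29 and -1.63 in spheres and -0.34, 0.37 and 0.62 outside at 48 h. At 24 h they read -2.43, -1.45 and -1.22 in spheres and -0.27, -0.23 and 0.49 outside. The average in-sphere difference was -1.83, a 3.56-fold lower ratio, and the compartments did not overlap (exact permutation p = 0.005, adjusted p = 0.0075). For both receptors 0.005 is the smallest p that the 400 regroupings can give. With exchanges only between same-numbered pairs it was 0.0312, the smallest of 64, and 0.0469 after adjustment. Neither Fcgr3 nor Fcgr4 was called, so both shifts mostly repeat the Fcgr2b difference and add no separate support to it. How many other genes would pass when set against Fcgr2b was not counted.

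Fcgr1 minus Fcgr2b did not pass. It was -1.05, -0.24 and -0.47 in spheres and 0.06, -0.35 and 1.07 outside at 48 h, and -0.20, -0.04 and 0.30 in spheres and 0.47, -0.69 and 1.29 outside at 24 h. The average difference was -0.59 (exact permutation p = 0.15). It passed at -0.85 (exact permutation p = 0.015) without outside replicate 2 of 24 h, the array with the lowest outside value, and at -0.83 (exact permutation p = 0.035) with the mean of each gene's probe sets.

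**Figure D3:**
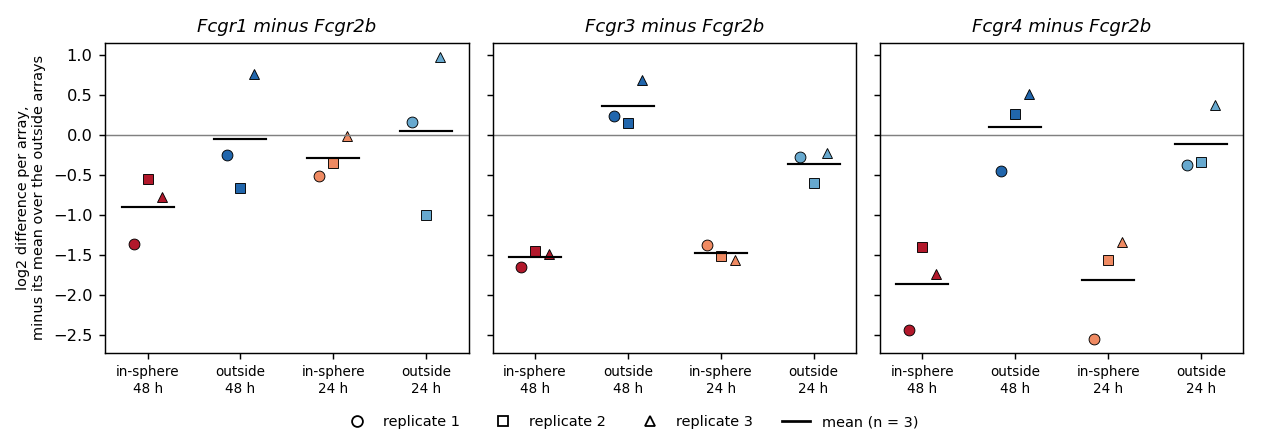
Per-array log2 difference between an activating receptor gene and Fcgr2b, with the mean of the 6 outside arrays set to 0, for in-sphere and outside macrophages at 48 h and 24 h from left to right, with symbols for replicates and lines for means (n = 3). The in-sphere arrays lie below all outside arrays for Fcgr3 and Fcgr4, and the compartments overlap for Fcgr1.

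None of the 6 genes was called between 48 h and 24 h, while 3 of the 6 in spheres and 2 of the 6 outside had an unadjusted p under 0.05. In spheres 0.0% of all genes were called by limma, with 10.7% at an unadjusted p under 0.05, and outside 0.336% were called, with 10.8% at an unadjusted p under 0.05. With the replicate block limma called 15 genes (0.12%) in spheres and 158 (1.27%) outside, in place of 0 and 42, and again none of the 6. Fcgr3 was higher at 48 h than at 24 h in 3 of 3 pairs of each compartment, by 0.32 ± 0.11 in spheres and 0.38 ± 0.11 outside (limma adjusted p = 0.347 and 0.178). The share of all genes with such pairs was not counted. Fcgrt was likewise higher at 48 h in 3 of 3 pairs of each compartment, by 0.42 ± 0.15 in spheres and 0.27 ± 0.15 outside (limma adjusted p = 0.371 and 0.573). Arrays of the 2 times did not overlap for 3 of the 6 genes in spheres, Fcgr2b, Fcgr3 and Fcgrt, and for 2 outside, Fcgr2b and Fcgr3, beside 13.8% and 22.1% of all genes.

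Fcgr2b differed by 0.37 ± 0.13 between 48 h and 24 h in spheres and by -0.34 ± 0.13 outside (limma adjusted p = 0.374 and 0.372). The change of its in-sphere difference from 24 h to 48 h was 0.71 ± 0.19, with an adjusted p of 0.178 from limma, where 0.0% of all genes were called and 12.3% had an unadjusted p under 0.05. For the other 5 genes that change ran from -0.06 for Fcgr3 to 0.44 for Fcgr4, with adjusted p-values of 0.758 or more.

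Other immunoglobulin-binding and Fc receptor-like genes were mostly dim: of 9 with a probe set, 4 were tested, and Fcer1a, the alpha chain of the high-affinity IgE receptor, lay at or below the level of 2.77 on all arrays. Fcrls, an Fc receptor-like gene of mouse myeloid cells, read 10.03, 10.70 and 10.64 in spheres and 8.54, 9.65 and 9.17 outside at 48 h. It was higher by 1.34 ± 0.29 (limma adjusted p = 0.00344), with no overlap, while at 24 h the difference was -0.05 ± 0.29 (adjusted p = 0.928) and the change between times was not called (adjusted p = 0.213). Fcrl1, an Fc receptor-like gene of B cells, fell by 2.66 ± 0.33 at 48 h and by 3.01 ± 0.33 at 24 h (limma adjusted p = 6.7e-05 and 4.55e-05), and by 1.96 at 24 h with the mean of its probe sets. Fcrl1 averaged 5.91 outside at 48 h and 6.17 at 24 h. Its in-sphere means, 3.25 and 3.17, were near the level of 2.77. Trim21, which encodes a cytosolic antibody receptor, was called at 48 h (-0.58 ± 0.21, limma adjusted p = 0.0499) but not with the replicate block (adjusted p = 0.0567), and it was called under 8 of 22 alternatives.

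The adaptor genes that work beside the FcR gamma chain were lower in spheres. Tyrobp, which encodes the ITAM adaptor DAP12, read 12.05, 12.19 and 12.06 in spheres and 12.68, 12.67 and 12.72 outside at 48 h. It fell by 0.59 ± 0.10 at 48 h and by 0.37 ± 0.10 at 24 h (limma adjusted p = 0.000474 and 0.0110). Hcst, which encodes the adaptor DAP10, fell by 1.16 ± 0.16 and 1.33 ± 0.16 (limma adjusted p = 0.000116 and 7.26e-05). Of 6 other receptors that couple to the gamma chain, 1 rose and 1 fell at 48 h and 1 fell at 24 h. Among all genes, 15.2% rose and 22.3% fell at 48 h, and 13.6% fell at 24 h. The median differences of these 6 receptors were -0.09 and 0.0085. At 48 h the fall was that of Clec4d, a C-type lectin receptor, by 0.56 ± 0.11, and the rise that of its relative Clec4e, by 0.54 ± 0.15 (limma adjusted p = 0.00173 and 0.0130). The Clec4e call was lost with the mean of its probe sets (0.21, limma adjusted p = 0.319) and without outside replicate 1 or 3 of 48 h (adjusted p = 0.0556 and 0.0582). The fall at 24 h was that of Gp6, a collagen receptor gene of platelets (-0.51 ± 0.18, limma adjusted p = 0.0490), which was not called with the replicate block (adjusted p = 0.0693).

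Most of the called genes that relay the ITAM signal were lower in spheres. Of 15 tested, 9 fell at 48 h and 8 at 24 h, and none rose, where 22.3% and 13.6% of all genes fell. The list medians were -0.51 and -0.42. At 48 h 7 fell without in-sphere replicate 3, and 5 fell and 1 rose with each array centred on its median. The Src family kinase gene Fgr fell by 1.77 ± 0.22 at 48 h and 1.01 ± 0.22 at 24 h, and Vav1, which encodes a Rac activator, by 0.89 ± 0.17 and 0.69 ± 0.17 (limma adjusted p = 7.6e-05, 0.00480, 0.00141 and 0.00849). Btk, a Tec family kinase gene, fell by 1.21 ± 0.28 at 24 h, or by 0.72 with array weights, and differed by -0.44 ± 0.28 at 48 h without being called (limma adjusted p = 0.00677, 0.0224 and 0.252). Syk, the kinase that docks on the ITAM, differed by -0.89 ± 0.49 and -0.76 ± 0.49 without being called (limma adjusted p = 0.173 and 0.280), and its outside arrays at 24 h ran from 3.38 to 5.75. Lyn was not analysed here.

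Most of the called genes of the inhibitory side, Fcgr2b apart, were lower in spheres. Of 18 inhibitory phosphatase, adaptor and receptor genes, 1 rose and 9 fell at 48 h, and 2 rose and 10 fell at 24 h. Among all genes, 15.2% rose and 22.3% fell at 48 h, and 15.8% rose and 13.6% fell at 24 h. The list medians were -0.42 and -0.46. The ITIM receptor gene Cd300a fell by 2.57 ± 0.20 at 48 h and 2.41 ± 0.20 at 24 h, and Sirpa, the receptor for the don't-eat-me signal CD47, fell by 1.01 ± 0.16 at 48 h (limma adjusted p = 2.38e-06, 6.18e-06 and 0.000324). Dok2, which encodes an adaptor that restrains tyrosine kinase signalling, rose by 1.64 ± 0.20 and 1.85 ± 0.20 (limma adjusted p = 7.15e-05 and 4.9e-05). Inpp5d, the gene of SHIP1, read 8.46, 8.61 and 8.43 in spheres and 8.78, 8.69 and 8.79 outside at 48 h, a difference of -0.26 ± 0.13 that was not called, like the -0.13 ± 0.13 at 24 h (limma adjusted p = 0.139 and 0.488). Ptpn6, the gene of the phosphatase SHP-1, fell by 0.77 ± 0.12 and 0.64 ± 0.12 (limma adjusted p = 0.000399 and 0.00200).

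Among 16 genes of the actin machinery that builds the phagocytic cup, 7 fell at 48 h and 3 at 24 h and none rose, with medians of -0.38 and -0.29, where 22.3% and 13.6% of all genes fell. Myo10, an unconventional myosin gene, fell by 1.90 ± 0.23 at 48 h, and Rac2, a small GTPase gene of blood cells, by 0.93 ± 0.15 at 48 h and 1.08 ± 0.15 at 24 h (limma adjusted p = 6.17e-05, 0.000392 and 0.000210). At 24 h 6 fell with centred arrays or without in-sphere replicate 3 of 48 h. All 3 tested genes of the phagocyte NADPH oxidase fell at 48 h and 2 of 3 at 24 h, against 1 at 48 h with centred arrays. Its catalytic subunit gene Cybb fell by 0.72 ± 0.12 and 0.60 ± 0.12 (limma adjusted p = 0.000676 and 0.00311).

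Of 12 genes that regulate Fc receptor genes, 1 rose and 4 fell at 48 h, and 1 fell at 24 h. Among all genes, 15.2% rose and 22.3% fell at 48 h, and 13.6% fell at 24 h. The list medians were -0.07 and -0.05, and that of 48 h was 0.05 with centred arrays. The rise, of the interferon gamma receptor gene Ifngr1 (0.41 ± 0.13, limma adjusted p = 0.0234), was lost without in-sphere replicate 2 or 3 or outside replicate 1 or 2 of 48 h (limma adjusted p = 0.0618 to 0.0774). Cebpa, a myeloid transcription factor gene, fell by 2.31 ± 0.19 and 1.47 ± 0.19, and Spi1, the gene of PU.1, by 0.66 ± 0.15 at 48 h (limma adjusted p = 4.02e-06, 0.000142 and 0.00419). Tgfbr1, the type I receptor gene of TGF-beta, fell by 0.73 ± 0.17 at 48 h, or by 0.39 with the mean of its probe sets (limma adjusted p = 0.00439 and 0.0110).

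**Figure D4:**
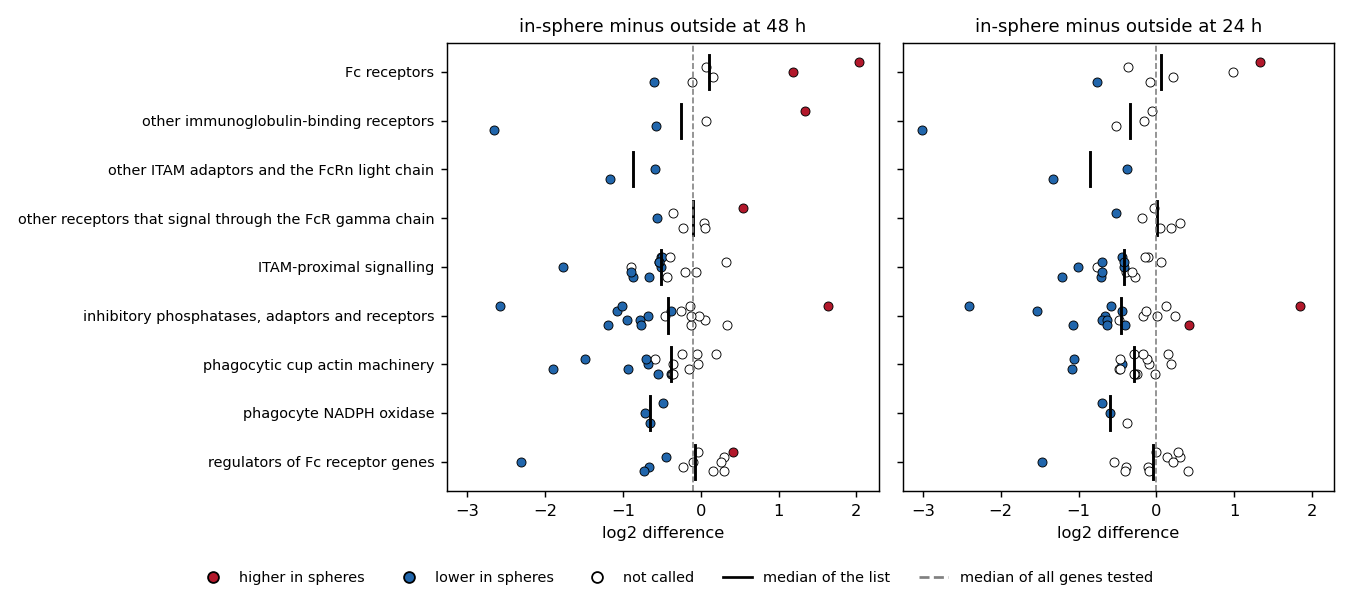
In-sphere minus outside log2 difference of each tested gene in 9 lists, at 48 h on the left and 24 h on the right, with red points called higher, blue points called lower and white points not called by limma, black bars for list medians and a dashed line for the median of all genes. Fcgr2b stands at the upper end of the Fc receptor row at both times, and the rows of ITAM-proximal signalling, phagocytic cup and NADPH oxidase genes hold no red point, whereas centring each array gives 1 in the ITAM row at 48 h.

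Several other cell types carry Fc receptors, and their markers were read on the same arrays. The marker counts stand beside 15.2% of all genes higher and 22.3% lower at 48 h, and 15.8% higher and 13.6% lower at 24 h. Of 9 granulocyte markers, all above the level of 2.77 on every array, 6 fell at each time and 1 rose at 48 h, and their array means were 8.52 to 9.39 in spheres and 9.56 to 10.13 outside at 48 h, and 9.16 to 10.06 in spheres and 10.29 to 10.78 outside at 24 h. With the replicate block 2 granulocyte markers rose at each time. Of 3 tested B cell markers, 1 rose at 48 h and 1 fell at 24 h. The array means over the 5 B cell markers with a probe set were 3.14 to 3.44 in spheres and 3.12 to 3.36 outside at 48 h, and 3.39 to 3.41 in spheres and 3.34 to 4.02 outside at 24 h, near the level of 2.77, and Blk lay at or below that level on all arrays. The marker that rose at 48 h was Cd79b, a signalling chain of the B cell receptor, at 6.57, 6.83 and 6.53 in spheres and 5.13, 6.14 and 5.87 outside (0.93 ± 0.23, limma adjusted p = 0.00804). The marker that fell at 24 h was Ms4a1, at 2.44, 3.22 and 2.86 in spheres and 3.08, 5.36 and 5.33 outside. At 48 h Ms4a1 was not called, with means of 2.43 in spheres and 3.22 outside.

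Of 6 tested mast cell and basophil markers, 2 fell at 48 h and 4 at 24 h, with array means over 7 genes of 2.97 to 3.27 in spheres and 3.35 to 4.26 outside at 48 h, and 3.05 to 3.36 in spheres and 3.61 to 4.50 outside at 24 h, and Mcpt4 lay at or below 2.77 on all arrays. With the replicate block 4 of them fell at 48 h. Kit, called lower at both times, lay at or below 2.77 on every in-sphere array and averaged 2.86 outside at each time. Gata1, called lower at 24 h, averaged 2.77 in spheres and 3.22 outside. Hdc, called lower at both times, was brighter, with 4.79 in spheres and 6.55 outside at 48 h. None of 4 tested NK and T cell markers was called by limma or had an unadjusted p under 0.05 at either time, although Klrk1 at 24 h was called with array weights (0.46, limma adjusted p = 0.0179, against 0.27 without them), and Ncr1, Gzma and Cd3g lay at or below that level throughout. Of 4 tested dendritic cell markers, 1 rose at each time, with array means over 5 genes of 4.03 to 4.13 in spheres and 3.44 to 3.84 outside at 48 h, and 4.01 to 4.27 in spheres and 3.78 to 3.87 outside at 24 h. The riser was Fscn1, an actin-bundling gene, by 2.25 ± 0.30 and 1.90 ± 0.30 (limma adjusted p = 0.000114 and 0.000561).

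Of 8 tested macrophage markers, 1 rose and 2 fell at each time, and 3 fell with the replicate block. Among all genes, 15.2% rose and 22.3% fell at 48 h, and 15.8% rose and 13.6% fell at 24 h. The macrophage marker means over 9 genes were 9.44 to 9.53 in spheres and 9.54 to 9.63 outside at 48 h, and 9.19 to 9.60 in spheres and 9.53 to 9.67 outside at 24 h. Cd14, a lipopolysaccharide co-receptor gene, rose by 1.09 ± 0.13 and 0.54 ± 0.13, and Mertk, which encodes a receptor for apoptotic cells, fell by 1.25 ± 0.15 and 0.91 ± 0.15 (limma adjusted p = 5.11e-05, 0.00715, 6.3e-05 and 0.000887). Cd68, a lysosomal protein gene, fell by 0.75 ± 0.13 at 48 h, and Adgre1, an adhesion receptor gene of macrophages, by 0.43 ± 0.13 at 24 h (limma adjusted p = 0.000691 and 0.0221), and the Adgre1 call held under 18 of 22 alternatives.

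Of 11 tested neural markers, 3 rose at 48 h and 2 at 24 h and none fell, with medians of -0.01 and -0.02. Elavl4, among the risers at 48 h, was dim, with means of 3.03 in spheres and 2.37 outside. It lay above 2.77 only on the in-sphere arrays of 48 h. The neural marker Gap43 averaged 6.92 in spheres and 2.51 outside at 48 h, and 6.97 and 2.98 at 24 h. Of 9 stromal markers, 5 rose and 2 fell at 48 h, and 4 rose and 1 fell at 24 h, with medians of 1.48 and 0.46. Col3a1, a collagen gene, averaged 10.82 in spheres and 7.53 outside at 48 h, and 10.78 and 8.14 at 24 h. Another collagen gene, Col1a1, went the other way, with 5.04 in spheres and 6.27 outside at 48 h, and 4.32 and 4.92 at 24 h. Of all genes 15.2% rose at 48 h and 15.8% at 24 h. Of 4 tested endothelial markers, 1 fell at 48 h and 2 at 24 h. The part of these cell types in the Fc receptor values was not tested.

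Across the 12 arrays, the genes whose levels followed each Fc receptor gene most closely, by Pearson correlation, were found among all genes tested. For Fcgr2b they were Pgk1 at 0.989, Rnase4 at 0.988 and Lig1 at 0.985. For Fcgr1 they were Phf11a at 0.959, Ifi203 at 0.954 and Gbp3 at 0.950, and for Fcgr3 Mrc1 at 0.931, Tgfbr2 at 0.918 and Bcl2a1a at 0.903. Fcgrt was followed most closely by Adgre1 at 0.964, Mdfic at 0.960 and Snx8 at 0.960. Correlations were lower for Fcgr4, with Aftph at 0.886, Spop at 0.851 and Dennd5a at 0.843, and for Fcer1g, with Ccdc84 at 0.911, Nosip at 0.875 and Frmd4b at 0.840. Between the receptors themselves the values ran from -0.78 for Fcgr2b with Fcgrt to 0.73 for Fcer1g with Fcgrt, and Fcgr1 with Fcgr2b gave 0.68. These arrays fall into 4 groups and share replicates and normalisation, so the coefficients describe them and carry no test.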

How the data were processed

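Macrophage RNA from 4 groups of 3 samples was hybridised to 12 Affymetrix mouse arrays. The authors deposited a log2 value for each probe set. According to the submitters' processing notes it was computed by RMA with Affymetrix Expression Console 1.1, and base 2 is inferred from the range. RMA equalises the arrays, so a difference in the total RNA of a cell does not show, and differences of dim probe sets are compressed. The number of arrays limits the precision. Of 45141 probe sets, 28898 had exactly 1 gene symbol in the platform annotation, 551 several, and 15692 were not named here. The fit used limma 3.58.1 under R 4.3.3 (lmFit, contrasts.fit, eBayes), with 1 mean per group over all arrays and 8 residual degrees of freedom, and p-values were adjusted by Benjamini-Hochberg over 12488 genes. Errors of differences are standard errors of that fit. The limma step was run on simulated arrays that were independent and had few changed genes. These data differ in both respects, so that run checked the code only.

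Activating minus inhibitory receptor differences were tested over arrays by exact permutation within times, adjusted over 3 receptors. Alternatives were other probe set filters (none, or the 60th percentile), the mean of a gene's probe sets, every probe set alone, median centring, an intensity trend, array weights, only the arrays compared, a replicate block and each array left out.

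Replicate numbers come from the labels, and the design text makes each replicate an independent experiment whose compartments share cultures, so the numbers were taken as pairing. Deviations from the group means correlated at 0.471, 0.473 and 0.419 between outside arrays of the same number at 48 h and 24 h, at 0.117, 0.0417 and 0.112 between compartments at 48 h and at 0.0215, 0.120 and 0.0813 at 24 h.

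The Fc receptor genes and all gene lists were chosen with earlier results of these data known. Named list genes are among the up to 5 called genes of a list with the largest difference at each time. The exceptions are Tyrobp, Syk, Inpp5d and Ptpn6, which were always given, and Klrk1, which the main fit did not call. Genes named only as lying at or below 2.77 on all arrays, or as not analysed, were not tested. Closest genes are the 3 with the highest correlation, passing over uncharacterised gene models. Cell type markers were lists of known genes.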

Additional observations from a re-analysis of the deposited data

Results flagged for a closer look

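For Fcgr2b, every same-numbered pair moved one way between 24 h and 48 h in spheres and the other way outside. The 48 h minus 24 h difference was 0.66, 0.20 and 0.24 in spheres and -0.15, -0.38 and -0.49 outside, on the log2 scale. The in-sphere difference changed from 24 h to 48 h by 0.707 ± 0.190 (SE), at an unadjusted p of 0.00287 and an adjusted p of 0.178 from limma across all genes, and adjusted p-values ran from 0.0711 to 0.348 over the alternatives. The other 3 Fcgr2b probe sets gave changes of 0.74, 0.73 and 0.62. This pattern of pairs was picked from these same data, and the share of all genes that show it was not counted.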

How the results depend on the processing

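The calls of Fcgr2b and Fcgrt and the absence of a call for Fcgr3, Fcgr4 and Fcer1g held in both compartment comparisons under all 22 alternatives. Fcgr1 at 48 h lost its call with the mean of its probe sets (0.91), and ran from 0.92 to 1.48 when single arrays were left out. Fcgr1 at 24 h was called with array weights (0.98), with the replicate block (0.99) and with that block without in-sphere replicate 3 of 48 h (0.99), the last chosen after seeing the data, and ran from 0.52 to 1.42 over array omissions. Fcgr1 minus Fcgr2b passed with the mean of the probe sets (-0.83) and ran from -0.85 to -0.36 over omissions. The replicate block, which pairs same-numbered arrays, changed no other call among the 6 Fc receptor genes. Signs of uncalled differences turned as follows. Fcgr4 ran from -0.12 to 0.30 at 48 h, -0.67 to 0.081 at 24 h, -0.13 to 0.62 between times in spheres and -0.26 to 0.084 outside over omissions (0.015 outside with array weights), and Fcer1g at 48 h was 0.0035 under median centring. Fcgr1 between times in spheres was 0.0075 with the block and without in-sphere replicate 3 of 48 h. The change of the in-sphere difference ran from -0.22 to 0.67 for Fcgr1 (-0.080 with the mean of probe sets), -0.14 to 0.0034 for Fcgr3 (0.11 with centring), -0.0081 to 0.74 for Fcgr4 and -0.070 to 0.048 for Fcer1g (0.15 with centring, 0.0057 with the block and without in-sphere replicate 3 of 48 h). Fcrls at 24 h was 0.15 with array weights and ran from -0.21 to 0.22 over omissions. Of 95 calls of list genes eligible to be named, 72 held under every alternative. The causes were not tested.

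Counts of all genes called between times moved by more than 1.5 times. In spheres 0 became 4 without a filter, 4 with the stricter filter, 3 with the mean of probe sets, 12 with centring, 9 with an intensity trend, 115 with array weights and 15 with the block. Outside 42 became 120 with centring, 88 with the trend, 286 with weights, 1 with the compared arrays alone and 158 with the block. For the change of the in-sphere difference 0 became 1 with the mean of probe sets, 70 with centring, 5 with the trend, 130 with weights and 65 with the block. Over array omissions these counts ran from 0 to 10, 0 to 68 and 0 to 2. With 3 arrays per group, differences of noisy probe sets such as those of Fcgr1 and Fcgr4 have intervals wider than 1 log2 unit.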
